A study of Mus musculus with 4 samples.

Results

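The subject is A2m, the gene of the secreted protease inhibitor alpha-2-macroglobulin (A2M), together with 7 receptors of the LDL receptor family and the chaperone that escorts these receptors to the cell surface. The 9 genes are A2m, Lrp1, Lrp2, Lrp4, Lrp8, Lrp10, Vldlr, Sorl1 and Lrpap1. They were taken by name from the 37310 genes of the count tables, and all 9 were among the 22214 genes with more than 2 counts summed over the 4 libraries. The members were chosen by the count difference between ages that A2m shows in these same libraries, with the earlier results for the other genes known, so the age differences of the 9 genes are given as a description, without p-values.

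A2M traps proteases of every class: a protease cuts a bait region, the inhibitor closes around it, and an internal thioester bond becomes exposed and can fix the protease covalently. The closed complex shows a site that LRP1 recognises, and LRP1 takes the complex into the cell for degradation, together with growth factors and cytokines that A2M carries. LRP1 and its relatives are large endocytic and signalling receptors built from ligand-binding repeats, and LRPAP1 binds them in the endoplasmic reticulum so that they do not meet ligands too early. In bone marrow, LEPR+ stromal cells are the perivascular cells that make the niche factors Cxcl12 and Kitl and give rise to bone and fat cells.

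RNA was sequenced from mature (3 months) and elderly (24 months) mice, all wild-type (WT) C57Bl/6 animals, and the study's methods give the sex as male. Each age had 2 libraries, which the label titles call mouse 1 and mouse 2 of that age. The methods state instead that the RNA of 3 or 4 mice was pooled, and by that account an SD with n = 2 describes pools and not mice. Which mice went into each library is not stated. The labels name bone marrow as the source, whereas the methods describe a sort of marrow cells that lack Ter119, CD31 and CD45 (Lin-) and carry the leptin receptor (LEPR+). The methods also state that some samples were prepared as total RNA rather than poly(A) RNA, and do not tie these to the 4 libraries, which the labels call poly(A) RNA.

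The libraries held between 10472117 and 15650518 counts, and the 2 libraries of an age were not repeats of 1 library, since the chi-square of their counts, divided by its degrees of freedom, was 16.05 for the mature and 34.2 for the elderly pair. Values are given as CPM, that is counts scaled to a common library size with edgeR's TMM factor, and a level is compared between genes only per kilobase (kb) of exon that no other annotated transcript shares, since reads on shared bases were not in these counts. The sorting marker Lepr, at 6042 ± 533 CPM when mature and 4914 ± 1121 CPM when elderly (SD, n = 2 each), was abundant in both groups. All 14 markers of LEPR+ stroma had negative log2 fold changes (elderly over mature, median -0.49). By edgeR's quasi-likelihood test 0 of these 14 passed after adjustment, as by DESeq2 and by edgeR's exact test, and 6 had an unadjusted p under 0.05. Of the blood lineages that the sort should remove, 7 of 12 erythroid and 6 of 12 neutrophil markers were called higher in elderly libraries. Also called higher were 5 of 12 macrophage, 2 of 9 T-cell, 2 of 7 plasma-cell and 1 of 11 B-lineage markers. The megakaryocyte list had 0 of 11 called. The share called higher was 1.94% over all genes tested. In bulk RNA, fewer cells of a type and less RNA per cell cannot be told apart.

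Of the 22214 genes, 524 (2.36%) were called between ages by edgeR's quasi-likelihood test at a Benjamini-Hochberg adjusted p under 0.05, of which 430 (1.94%) were higher and 94 (0.423%) were lower in elderly libraries. A log2 fold change here is elderly over mature, and its median over all genes tested was -0.006. Of the 9 genes, 2 were called, A2m as lower and Sorl1 as higher, and 1, A2m, also had an absolute log2 fold change over 2, as had 209 genes (0.941%) of all. The libraries of the 2 ages did not overlap in 6 of the 9 genes, compared with 40.9% of all genes tested. The choice of the genes used this contrast, so nothing is read from these counts. When either elderly library was left out, edgeR called 0 genes of the whole table, although 1463 (without elderly 1) and 1627 (without elderly 2) genes had an unadjusted p under 0.05, compared with 2428 with all 4 libraries, and DESeq2 called 319 and 422 genes on the same 3 libraries.

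A2m was abundant in the mature and low in the elderly libraries. It lies on chromosome 6 of NCBI Build 37 (mm9), at chr6:121586191-121629255 on the plus strand, and has 1 annotated transcript of 36 exons and 4670 bases, none of them shared with another transcript. It was counted 5843 and 9632 times in the mature libraries and 196 and 916 times in the elderly libraries. The same values in CPM were 506 and 830 in mature and 17.7 and 59.6 in elderly libraries. Both elderly libraries were far below both mature libraries, and the groups did not overlap, as was the case in the same direction for 18.9% of all genes tested.

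A2m averaged 668 ± 230 CPM in the mature and 38.6 ± 29.6 CPM in the elderly pair (SD, n = 2 each), a 17.3-fold difference. The fitted log2 fold change was -4.10 ± 0.46 (SE). The spread within an age was also wide: mature 2 was 1.64-fold above mature 1, and elderly 2 was 3.37-fold above elderly 1. The elderly value depended on which library was used, with a log2 fold change of -5.24 without elderly 2 and -3.46 without elderly 1. The call was made in 8 of 9 other settings that kept all 4 libraries and was lost in the robust quasi-likelihood fit. With 1 library left out, it was lost in edgeR without either elderly library, and in DESeq2 without mature 1 (-4.40) or mature 2 (-3.70).

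**Figure D1:**
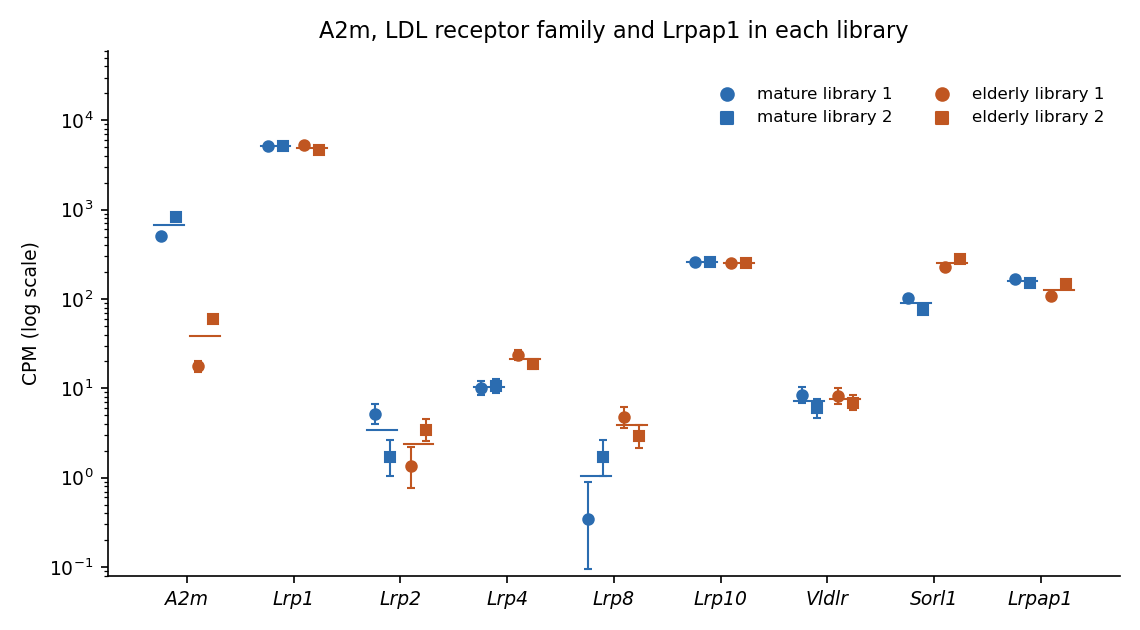
CPM of each of the 9 genes in the 4 libraries, on a logarithmic axis. Points are libraries, vertical bars are exact 95% Poisson intervals that cover counting error only, and horizontal lines are the mean of the 2 libraries of an age; A2m is at 506 and 830 CPM in mature and at 17.7 and 59.6 CPM in elderly libraries, and Lrp1 lies between 4601 and 5268 CPM.

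Few reads of A2m could match a relative exactly. Of the 4631 stretches of 40 bases in the A2m transcript, the length of 1 read, 2 were also present in a protein-coding transcript of another gene, Mug2, and Mug2 had 0 counts in every library. The 39 coding bases around the thioester site show how close the relatives are there, and are printed for A2m, for 3 family members and for C3, the complement protein that shares the same chemistry. They are from the GENCODE M1 transcripts of NCBI Build 37, 5′ to 3′ on the coding strand, and the 15 bases in capitals encode the thioester residues glycine, cysteine, glycine, glutamate and glutamine.
A2m: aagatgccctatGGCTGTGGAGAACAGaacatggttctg
Pzp: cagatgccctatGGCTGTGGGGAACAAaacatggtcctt
Mug2: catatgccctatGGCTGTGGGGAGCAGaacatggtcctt
Cd109: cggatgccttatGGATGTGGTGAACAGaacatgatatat
C3: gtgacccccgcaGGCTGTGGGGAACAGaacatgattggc

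The site of A2m lies in exon 24 of 36, at chr6:121618108-121618146. Over the 39 bases, Pzp differed from A2m at 5, Mug2 at 6, Cd109 at 10 and C3 at 12 positions. Within the 15 bases in capitals, C3 differed at 1 position and Pzp, Mug2 and Cd109 differed at 2 positions each. The amino acids are the same in all of them, because the search required these 5 residues.

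The 250 bases before the annotated start of A2m, on the same strand as the gene, are printed with those of its receptor Lrp1 and of Sorl1, the other gene called, since these are the promoter letters next to the transcripts compared here. They are from NCBI Build 37, at chr6:121585941-121586190 for A2m (plus strand), chr10:127058205-127058454 for Lrp1 (minus strand) and chr9:41932381-41932630 for Sorl1 (minus strand), and hold no annotated exon. Capitals mark matches on either strand to the STAT pattern TTCNNNGAA or the GC box GGGCGG.
A2m: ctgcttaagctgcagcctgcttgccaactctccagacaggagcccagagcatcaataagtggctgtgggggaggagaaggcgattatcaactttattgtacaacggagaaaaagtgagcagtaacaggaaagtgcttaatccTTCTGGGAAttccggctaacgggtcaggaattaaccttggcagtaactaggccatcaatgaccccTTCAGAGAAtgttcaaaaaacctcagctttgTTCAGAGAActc
Lrp1: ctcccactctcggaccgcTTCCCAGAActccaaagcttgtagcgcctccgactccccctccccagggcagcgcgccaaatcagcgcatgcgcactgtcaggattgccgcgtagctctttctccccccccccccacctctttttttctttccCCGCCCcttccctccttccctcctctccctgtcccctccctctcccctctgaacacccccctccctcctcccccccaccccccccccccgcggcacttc
Sorl1: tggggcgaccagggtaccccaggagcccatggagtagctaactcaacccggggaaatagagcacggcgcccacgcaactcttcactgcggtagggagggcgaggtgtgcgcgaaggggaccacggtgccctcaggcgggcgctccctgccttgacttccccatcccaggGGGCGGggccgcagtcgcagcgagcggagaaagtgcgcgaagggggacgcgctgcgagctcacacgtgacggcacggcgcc

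STAT factors act downstream of interleukin 6 and its relatives, which are known to induce A2m as an acute-phase gene in the rat liver. The A2m window held 3 matches to the STAT pattern, at 108, 43 and 12 bases before the start, and no GC box. Of the 22375 protein-coding genes with a complete window of this length, 6.83% held at least 1 such match and 4 (0.0179%) held 3 or more. Lrp1 held 1 match at 232 bases, and the other 7 genes held none. A GC box was present before Lrp1, Lrp2, Lrp4, Lrp8, Sorl1 and Lrpap1 and in 39.6% of all windows. None of the 9 windows held the TATA box letters TATAAA (12.3% of all windows) or the RUNX core TGTGGT (12.8%). The 4 patterns do not overlap in any of the printed windows, and a match describes the letters only.

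**Figure D2:**
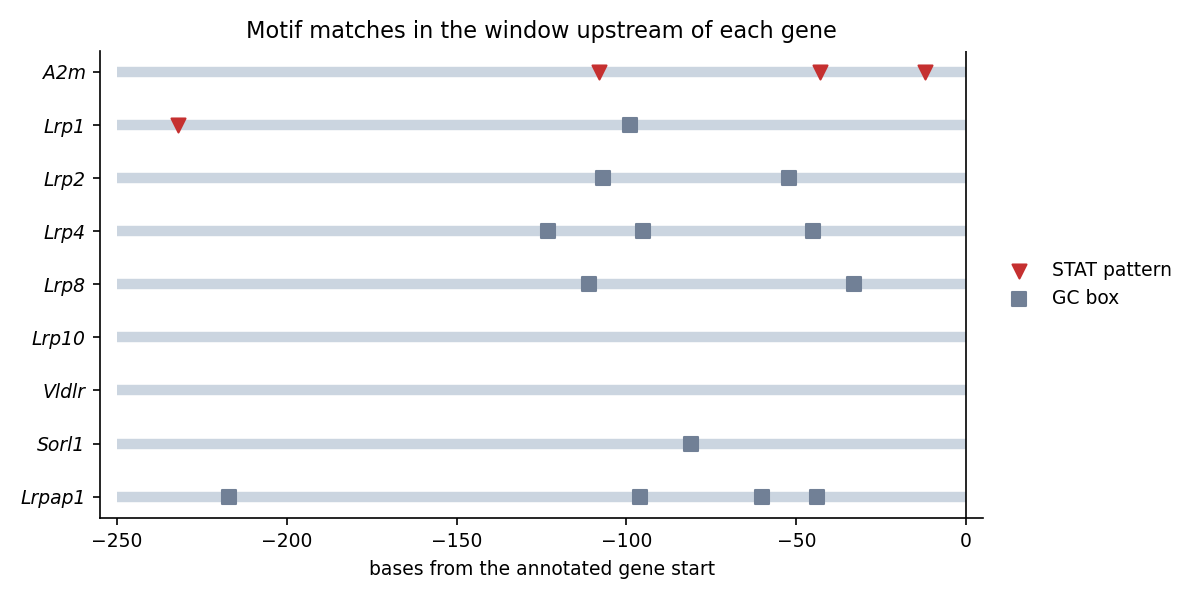
Matches to the STAT pattern and the GC box in the 250 bases before the start of each of the 9 genes. The horizontal axis is the distance from the annotated start in bases and each mark is 1 match on either strand; A2m is the gene with 3 STAT matches.

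The closest relatives of A2m had few or no counts. Mug2 had 0 counts in all 4 libraries with all of its exonic bases countable, and Cd109, a membrane-bound member, had between 5 and 19 counts. Pzp and Mug1 were also at 0, but 0.553% and 27.0% of their exonic bases were countable, so these zeros carry little information. C3, the central complement protein and the gene with the highest mean CPM of this thioester family (a rank of CPM, not per kb, as for the other lists below), was counted at 3210 and 3103 CPM in mature and 8344 and 4939 CPM in elderly libraries. C3 rose by 1.07 ± 0.24 (SE) on the log2 scale, with an edgeR adjusted p of 0.0368, a call that was lost in edgeR's exact test and with the filterByExpr filter. C4b was at 3137 ± 33.9 and 3868 ± 624 CPM (SD, n = 2 each) and was not called (adjusted p = 0.650). Of the 9 relatives in the table, 5 were tested and 1, C3, was called, compared with 2.36% of all genes tested. Their median log2 fold change was 0.30.

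Lrp1, the receptor that clears A2M complexes, was the most abundant of the 9 genes at both ages. It lies at chr10:126975217-127058204 on the minus strand, and 70.1% of its merged exonic bases were countable. It was at 5218 and 5124 CPM in mature and 5268 and 4601 CPM in elderly libraries. These values overlap, and the log2 fold change was -0.07 ± 0.18 (SE), between -0.14 and 0.03 when single libraries were left out. Nearly all of the counts came from the full-length transcript Lrp1-001, which held 60004 and 59158 counts in mature and 58149 and 70388 counts in elderly libraries. Its 5 retained-intron transcripts together held between 148 and 205 counts per library.

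The proportion of ligand to receptor RNA differed between the 2 ages. Within a library, the level of A2m per kb was 0.258 and 0.431 times that of Lrp1 in mature libraries. In elderly libraries it was 0.00892 and 0.0344 times that of Lrp1. These ratios do not depend on the scaling of the libraries, and those of the elderly libraries lie below those of the mature ones. A2m was chosen for its age difference and Lrp1 was nearly constant, so the ratios restate the A2m values and are no separate result.

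Among the other endocytic receptors, Lrp2 (megalin, the scavenger receptor of absorptive epithelia) was hardly counted. It lies at chr2:69262397-69424122 on the minus strand and had 60 and 20 counts in mature and 15 and 53 counts in elderly libraries, or 5.19, 1.72, 1.35 and 3.45 CPM. The groups overlap, with a log2 fold change of -0.50 ± 0.59 (SE) that lay between -1.34 (without elderly 2) and 0.51 (without mature 1), so no direction was detectable at this depth. Vldlr, which binds reelin and triglyceride-rich lipoproteins and lies at chr19:27290974-27328721 on the plus strand, was at 8.39 and 5.95 CPM in mature and 8.29 and 6.90 CPM in elderly libraries. These groups overlap as well, and the log2 fold change of Vldlr was 0.08 ± 0.33 (SE).

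Lrp4, the agrin receptor of muscle that in bone also binds sclerostin, was higher in both elderly libraries than in both mature ones. It lies at chr2:91297668-91354058 on the plus strand and was counted 118 and 124 times in mature and 262 and 284 times in elderly libraries, which is 10.2, 10.7, 23.6 and 18.5 CPM. Its log2 fold change was 1.01 ± 0.27 (SE), between 0.85 and 1.18 when single libraries were left out, and it was not called here but was called in 4 of 9 other settings. Only 14.04% of its exonic bases (1492 of 10626) were countable, and the counts were spread over Lrp4-001, Lrp4-201 and the noncoding Lrp4-003. All 3 transcripts had higher counts in each elderly than in each mature library: Lrp4-001 had 63 and 60 against 106 and 132, Lrp4-201 had 28 and 48 against 83 and 95, and Lrp4-003 had 27 and 16 against 73 and 57.

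Lrp8, the apolipoprotein E and reelin receptor also called APOER2, was close to the limit of counting. It lies at chr4:107474866-107549445 on the plus strand and had 4 and 20 counts in mature and 53 and 45 counts in elderly libraries, or 0.346, 1.72, 4.78 and 2.93 CPM. A count of 3, taken as the detection limit, corresponds to between 0.195 and 0.270 CPM in these libraries. The elderly values were above the mature ones, with a log2 fold change of 1.88 ± 0.65 (SE) that rested on the mature libraries: it was 1.15 without mature 1 and 3.40 without mature 2. Lrp8 was not called and was called in 2 of 9 other settings.

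The tails of 5 of the 7 receptors encode the motif asparagine, proline, any residue, tyrosine, which clathrin adaptors and signalling adaptors bind. The coding bases are printed because this site is what Lrp1 shares with Lrp2, Lrp4, Lrp8 and Vldlr and what Sorl1 and Lrp10 lack within their last 200 codons. The 12 bases in capitals encode the motif, from GENCODE M1 transcripts of NCBI Build 37, 5′ to 3′ on the coding strand, and Lrp1 and Lrp2 hold 2 sites each.
Lrp1 upstream site: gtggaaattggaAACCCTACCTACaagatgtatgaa
Lrp1 downstream site: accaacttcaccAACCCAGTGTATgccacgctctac
Lrp2 upstream site: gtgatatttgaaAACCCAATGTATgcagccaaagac
Lrp2 downstream site: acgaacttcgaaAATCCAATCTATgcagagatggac
Lrp4: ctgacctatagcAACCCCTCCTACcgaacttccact
Lrp8: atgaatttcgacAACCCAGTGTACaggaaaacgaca
Vldlr: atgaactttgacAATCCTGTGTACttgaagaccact

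The sites of Lrp1 lie in exons 88 and 89 of 89, at chr10:126976352-126976387 and chr10:126976108-126976143. The remaining members with such a site are Lrp2, Lrp4, Lrp8 and Vldlr. Per kb of countable exon their means were 14.1 CPM or less at both ages, compared with 416 (mature) and 397 (elderly) for Lrp1. Lrp4, at 7.00 CPM per kb in mature libraries, was close to Sorl1 (8.81), which lacks the site.

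Sorl1 and Lrp10 are the intracellular sorting receptors among the 9 genes. Sorl1 (SORLA), which carries both ligand-binding repeats and a sortilin-type domain and routes cargo between the Golgi and endosomes, was at 104 and 74.7 CPM in mature libraries. It was at 228 and 280 CPM in elderly libraries, so that both elderly values were above both mature values, as was the case for 22.0% of all genes tested. The mean rose from 89.2 ± 20.5 to 254 ± 37.2 CPM (SD, n = 2 each), a 2.85-fold difference. The log2 fold change was 1.51 ± 0.22 (SE) and lay between 1.27 and 1.77 when single libraries were left out. With all 4 libraries the call was made in 8 of 9 other settings and was lost in edgeR's exact test with a dispersion of 0.2. It was also lost in edgeR without mature 2 (1.27) and without either elderly library, and was made by DESeq2 whichever library was left out. Markers of blood lineages were more often higher than lower in the same libraries. Log2 fold changes were positive for 12 of 12 erythroid, 12 of 12 neutrophil and 9 of 9 T-cell markers tested. They were positive for 9 of 12 macrophage, 9 of 11 B-lineage, 8 of 11 megakaryocyte and 4 of 7 plasma-cell markers. The summed neutrophil list was between 1224 and 2131 CPM in mature and between 4432 and 4571 CPM in elderly libraries. The summed erythroid list was between 195 and 446 CPM in mature and between 1343 and 1526 CPM in elderly libraries, with 7 of 12 called higher. The summed B-lineage list was at 775 and 685 CPM in mature and at 517 and 599 CPM in elderly libraries. This sum was lower although the median log2 fold change of the tested B-lineage markers was 0.90, with 1 called higher. The sum includes Ebf1, which is also in the LEPR+ stroma list, so it does not measure B-lineage RNA alone. The megakaryocyte sums overlapped, with 0 of 11 markers called. The part of blood cells in the Sorl1 value was not tested. Sorl1 lies at chr9:41772803-41932380 on the minus strand, 89.4% of its exonic bases were countable, and the full-length transcript Sorl1-001 held 1184 and 863 counts in mature and 2515 and 4290 in elderly libraries.

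Lrp10, a small family member that shuttles between the Golgi, endosomes and the cell surface, was nearly constant over the 4 libraries. It lies at chr14:55083001-55090334 on the plus strand and was at 262 and 257 CPM in mature and 255 and 255 CPM in elderly libraries. The groups did not overlap, but the log2 fold change was -0.03 ± 0.18 (SE), and it lay between -0.06 and 0.00 when single libraries were left out, so no direction is given.

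Lrpap1, the chaperone of the family, lies at chr5:35434139-35448415 on the minus strand and was at 166 and 150 CPM in mature and 107 and 145 CPM in elderly libraries. Both elderly values were below both mature ones, with a log2 fold change of -0.32 ± 0.21 (SE) that was -0.56 without elderly 2 and -0.09 without elderly 1, and it was not called. Most of its counts came from Lrpap1-001, with 1632 and 1556 counts in mature and 1008 and 2032 in elderly libraries. Per kb, Lrp1 was 6.97 and 7.58 times Lrpap1 in mature and 10.9 and 7.01 times Lrpap1 in elderly libraries, and these ratios overlap.

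**Figure D3:**
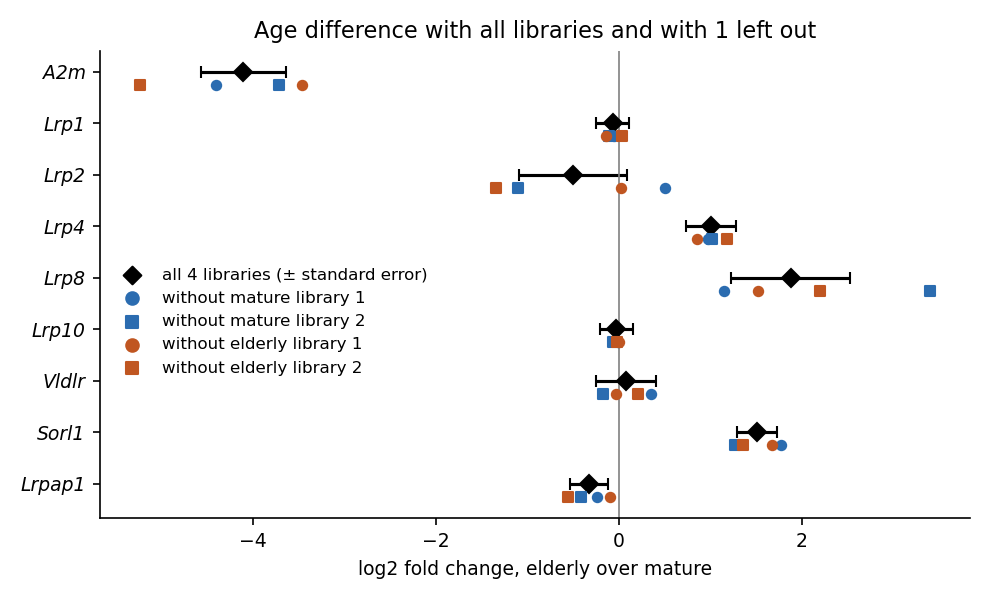
Log2 fold change (elderly over mature) of the 9 genes with its standard error. Black diamonds are fits of all 4 libraries and the coloured marks below them are fits with 1 library left out; A2m is at -4.10 with all libraries, and the others lie between -0.50 and 1.88.

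Per kb of countable exon, the order of the levels in mature libraries was Lrp1 (416), A2m (143), Lrp10 (61.8), Lrpap1 (57.4), Sorl1 (8.81), Lrp4 (7.00), Vldlr (1.14), Lrp2 (0.276) and Lrp8 (0.182 CPM per kb). Neighbours in this order did not overlap over the libraries, except Lrp2 and Lrp8. In elderly libraries the order was Lrp1 (397), Lrp10 (60.7), Lrpap1 (45.8), Sorl1 (25.1), Lrp4 (14.1), A2m (8.27), Vldlr (1.20), Lrp8 (0.676) and Lrp2 (0.192 CPM per kb), and Lrp4 and A2m overlapped. A2m stood at rank 2 in mature and at rank 6 in elderly libraries, with Lrp1 first in both. The elderly rank depended on the length used: per kb of all merged exons, A2m was at 3.78 and 12.8 CPM and Lrp4 at 2.22 and 1.74 CPM, which places A2m above Lrp4 at rank 5.

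The receptor pool was dominated by Lrp1. Of the summed level per kb of the 7 receptors, Lrp1 made up 83.8% and 84.2% in mature and 80.7% and 78.3% in elderly libraries. Sorl1 made up 2.04% and 1.51% in mature and 4.28% and 5.85% in elderly libraries. Lrp10 made up between 11.5% and 12.8% in every library.

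**Figure D4:**
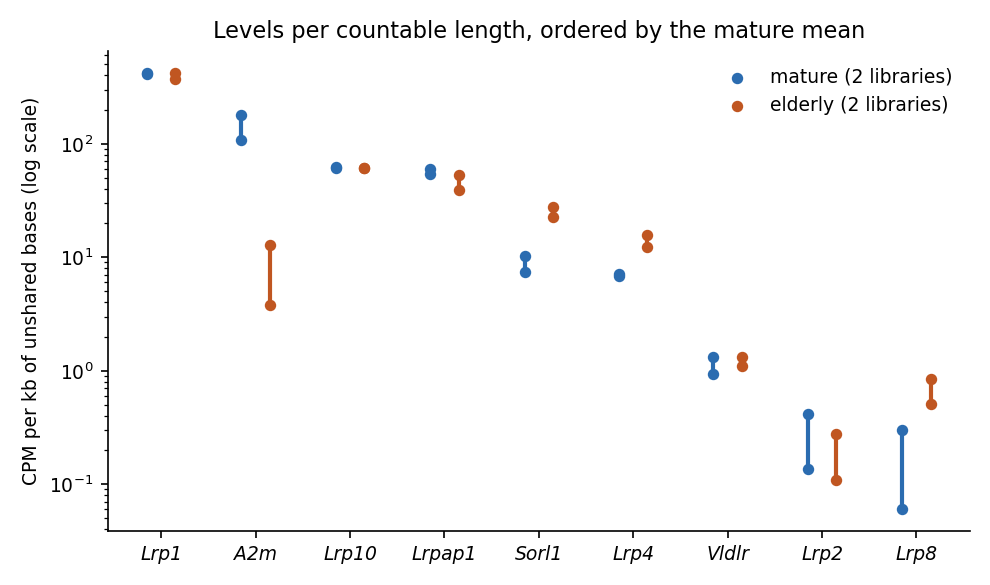
Level of each of the 9 genes in CPM per kb of countable exon, on a logarithmic axis, for the 2 mature and the 2 elderly libraries. Each point is a library and a line joins the libraries of an age; Lrp1 is highest at both ages, and A2m moves from above Lrp10 to the range of Lrp4.

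The other receptors of the LDL receptor and sortilin families were mostly not called. Of 16 in the table, 12 were tested and 2 were called, both higher, compared with 1.94% called higher of all genes tested. The median log2 fold change was -0.01. Sorcs1, a sortilin-type receptor, was among these, with 0 and 2 counts in mature and 16 and 140 counts in elderly libraries, and most of its counts came from elderly 2. The gene with the highest mean CPM of the list was Nid1, a basement membrane protein with LDL receptor repeats, at 1873 ± 83.9 and 1357 ± 366 CPM (SD, n = 2 each), and it was not called (adjusted p = 0.451). The WNT coreceptors Lrp5 and Lrp6, chosen after their values were seen, had log2 fold changes of 0.05 ± 0.18 and -0.29 ± 0.19 (SE) and were not called.

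Genes that fold, sort and turn over these receptors, and genes that shed them, gave no calls by edgeR's quasi-likelihood test with the filter and scaling used here. Other settings of the same test called 1 shedding gene (with filterByExpr, no filter, library size only, the robust fit, the replicate block or protein-coding genes only) and 1 gene of the chaperone list (with no filter, the robust fit or the replicate block). Of 25 chaperones, adaptors and turnover genes tested, 0 were called, 2 had an unadjusted p under 0.05, and the median log2 fold change was -0.05. DESeq2 called 1 of them, Mylip, a ubiquitin ligase, named after its values were seen, and the exact test called 0. The general chaperone Canx, with the highest mean CPM of the list, had a log2 fold change of 0.10 ± 0.19 (SE). Of 13 sheddases and gamma-secretase genes tested, 0 were called, 1 had an unadjusted p under 0.05, and the median was -0.21. DESeq2 called 1 of them, Adam12, named after its values were seen, and the exact test called 0. Mmp14, with the highest mean CPM of the list, was at 666 ± 71.0 and 680 ± 75.7 CPM (SD, n = 2 each).

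Among the other ligands of these receptors, 3 of 35 tested were called, all higher, with a median log2 fold change of 0.22. Of all genes tested, 1.94% were called higher. Thbs1 (thrombospondin 1), which LRP1 takes up, was at 1477 and 1232 CPM in mature and 2231 and 3254 CPM in elderly libraries and rose by 1.02 ± 0.22 (SE; edgeR adjusted p = 0.0316), a call that was lost in the exact test and with filterByExpr. C1qa and C1qb, subunits of the first complement component, rose from 0.952 to 10.2 and from 1.25 to 13.2 CPM (edgeR adjusted p = 0.0242 and 0.0111). The call of C1qa was lost in DESeq2 and in the robust quasi-likelihood fit. C1qa had 1 count in mature 2, and the log2 fold changes of 3.41 and 3.39 became 6.75 and 5.23 without mature 1. Of the 12 macrophage markers tested, 5 were called higher, 3 of them besides C1qa and C1qb, while 3 had negative log2 fold changes. The median log2 fold change of the 12 was 1.23. The summed level of the list was between 3762 and 4204 CPM in mature and between 2936 and 4436 CPM in elderly libraries, which overlap. The marker Cd163 was at 0, with 1.85% of it countable. The sum includes Vcam1, which is also in the LEPR+ stroma list, so it does not measure macrophage RNA alone. The part of macrophage RNA in these values was not tested. Serpine2, with the highest mean CPM of the list, was at 7874 ± 6.23 and 7682 ± 543 CPM (SD, n = 2 each) with a log2 fold change of -0.04.

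Proteases that A2M can trap held the most calls of the lists. Of 23 tested, 6 were called higher and 1 lower, with a median log2 fold change of 0.31. Of all genes tested, 1.94% were called higher and 0.423% lower. The lists were chosen with earlier results of these data known, so nothing is read from their counts of calls. Adamts5, the aggrecan-cleaving protease, was at 431 and 336 CPM in mature and 1333 and 1407 CPM in elderly libraries and rose by 1.84 ± 0.20 (SE; edgeR adjusted p = 0.0010). Mmp2, a gelatinase, was at 93.3 and 91.5 CPM in mature and 247 and 276 CPM in elderly libraries and rose by 1.50 ± 0.19 (SE; edgeR adjusted p = 0.0021). In both genes the elderly libraries were well above the mature ones, and both calls were lost in the exact test with a dispersion of 0.2. Of 11 fibroblast markers tested, 9 had positive and 2 negative log2 fold changes, with a median of 0.96 and 2 called higher. The part of such cells in the Adamts5 and Mmp2 values was not tested.

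The other 4 proteases called higher are made by neutrophils, Mmp9 also by other cells. Mmp9 rose by 1.67 ± 0.21, Elane (neutrophil elastase) by 2.07 ± 0.26, Ctsg (cathepsin G) by 2.45 ± 0.37 and Mmp8 (neutrophil collagenase) by 1.30 ± 0.27 (log2 scale, SE), with edgeR adjusted p-values of 0.0021, 0.0021, 0.0052 and 0.0267. Of these, the exact test kept only the call of Ctsg, whose log2 fold change was 1.84 without elderly 1. Of the 12 neutrophil markers tested, 6 were called higher, Elane, Ctsg and Mmp8 among them. Their summed level was between 1224 and 2131 CPM in mature and between 4432 and 4571 CPM in elderly libraries, none of the 12 was at 0, and their part in the protease values was not tested. Htra1, named after its values were seen as the 1 protease called lower, was at 4.75 ± 0.109 and 1.23 ± 0.174 CPM (SD, n = 2 each; edgeR adjusted p = 0.0463), a call that was lost in DESeq2, in the exact test and with library size as the only scaling. Adamts1, with the highest mean CPM of the list, was at 1272 ± 21.0 and 948 ± 154 CPM (SD, n = 2 each) and was not called (adjusted p = 0.438).

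Of the cytokines and growth factors that A2M binds, 1 of 17 tested was called, as higher, with a median log2 fold change of 0.54. The share called higher was 1.94% over all genes tested. Il1b (interleukin 1 beta) was at 35.8 and 34.2 CPM in mature and 67.6 and 95.6 CPM in elderly libraries and rose by 1.22 ± 0.23 (SE; edgeR adjusted p = 0.0163), a call that was lost in the exact test. Log2 fold changes were positive for 12 of 12 neutrophil and 9 of 12 macrophage markers, of which 6 and 5 were called higher, and the part of these cells in the Il1b value was not tested. Il6, named after its values were seen, had 62 and 37 counts in mature and 101 and 208 counts in elderly libraries and was not called by edgeR (log2 fold change 1.41 ± 0.37, adjusted p = 0.0805) but was called by DESeq2. Tgfb3, with the highest mean CPM of the list, was at 175 ± 14.2 and 176 ± 22.8 CPM (SD, n = 2 each) and was not called.

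**Figure D5:**
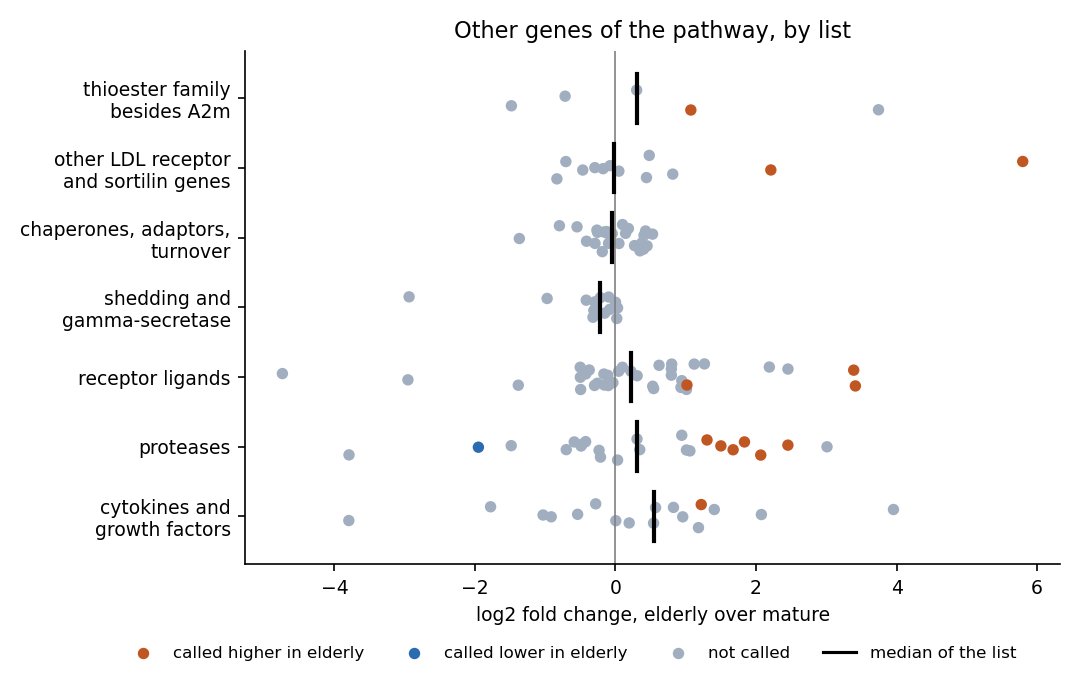
Log2 fold change (elderly over mature) of the 127 tested genes of the 7 pathway lists, the 9 genes left out. Each point is a gene, coloured where it was called, and black bars are list medians; 13 of the 14 called genes are higher in elderly libraries, 6 of them proteases.

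Some markers of cartilage and bone cells were also lower in elderly libraries, and others were higher. Of 14 chondrocyte markers tested, 3 were called lower and 1 higher, compared with 0.423% and 1.94% of all genes tested. Acan (aggrecan) was counted 117 and 166 times in mature and 5 and 11 times in elderly libraries, Hapln1 (the link protein of aggrecan) 56 and 132 times and 0 and 0 times, and Col10a1 260 and 661 times and 124 and 88 times. Col2a1, the main collagen of cartilage, was called higher at 0.604 ± 0.121 and 4.31 ± 2.96 CPM (SD, n = 2 each). The summed level of the list was between 118 and 177 CPM in mature and between 113 and 123 CPM in elderly libraries, with Col9a1, Comp and Ucma at 0. Of 15 osteolineage markers, 2 were called lower (Ibsp and Wif1) and 2 higher (Col1a1 and Phex). Of these 4, DESeq2 did not call Ibsp and the exact test called 0. Over the 15 markers, log2 fold changes were positive for 9 and negative for 6, with a median of 0.005. The summed level of the 15 was between 7993 and 8429 CPM in mature and between 3250 and 5018 CPM in elderly libraries. The summed level of the LEPR+ stroma list was between 38578 and 38583 CPM in mature and between 23793 and 33093 CPM in elderly libraries, and the lower of the elderly values belongs to elderly 1, the library with the lower A2m. Lepr and Cxcl12, the defining markers of that stroma, were at 4121 and 7208 CPM in elderly 1, and so still abundant there. The median log2 fold change of the 14 stroma markers was -0.49, with 0 called, and that of A2m was -4.10. The part of these cell types in the A2m values was not tested.

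The genes most like A2m over the 4 libraries were found by the Euclidean distance between log2 CPM values centred on each gene's mean, over 7047 genes with a mean of at least 10 CPM. Tacr1, the receptor of substance P, was closest with a distance of 0.0913, compared with 4.51 between A2m and a flat profile. Tacr1 had 165 and 290 counts in mature and 4 and 26 counts in elderly libraries, with the lower count of each age in the same libraries as for A2m. Its 4 counts in elderly 1 were close to the detection limit of 3, and the distance used log2 values with a prior count of 2. The next were C6 (1.56), 5430419D17Rik (1.73), Gm2115 (1.79) and Vipr2 (2.10), which were less close. The 5 genes most like Lrp1 were Ubxn7, Eif1, Cetn3, Rrp7a and Aasdhppt, at distances between 0.033 and 0.038, where Lrp1 itself was 0.156 from a flat profile, so that all of them were near-constant.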

How the data were processed

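RNA was measured by sequencing in 4 libraries of the series, 2 per age, grouped by the titles of the sample labels. The authors removed adapters with CutAdapt, used HISAT2 to map paired reads to NCBI Build 37 (mm9), and ran featureCounts in Galaxy. The deposited values are whole-number counts per Ensembl transcript, without normalization, and there are no columns of the authors' own comparisons. The strand setting of the counting is not given in the sources used here, so reads of an overlapping antisense gene may be among the counts. Of the 95883 transcripts, 388 were not in GENCODE M1 and were left out (between 0.0785% and 0.0888% of the counts). Each of the 25621 transcripts that lie wholly on bases of other transcripts was at 0, so a gene's count covers its unshared bases.

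Counts were summed per gene. Genes with more than 2 counts over the 4 libraries were normalized by TMM (factors 0.970, 0.990, 1.06 and 0.983) and compared with edgeR 4.0.16's quasi-likelihood test (trended dispersion, two-sided, no covariate, Benjamini-Hochberg adjustment over 22214 genes, prior count 0.125) in R 4.3.3. The common dispersion was 0.0703 and the prior degrees of freedom 9.96. An exact permutation of 2 against 2 libraries has a smallest p of 0.333, and the adjusted p-values therefore depend on variance information borrowed from other genes. On simulated counts the test recovered 175 of 200 changed genes (87.5%) with 181 calls among 21503 genes, and made 0 calls among 21500 genes when none was changed. The simulation gave every gene the trended dispersion and changed only better-counted genes, by large folds. It does not measure recovery or false calls where genes differ in their own spread, as they can in these libraries.

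The 9 genes, the gene lists, the motifs and the alternatives were chosen with earlier results of these data known. Genes named from the 7 pathway lists are those called (the 6 with the highest mean CPM where more) and the gene with the highest mean CPM of each list. Others are named as chosen after their values were seen. A gene that meets this rule is not reported here. The alternatives were DESeq2 1.42.0, edgeR's exact test with a dispersion of 0.2 (the authors' choice), the filterByExpr filter or none, library size as the only scaling, TMM factors that ignore immunoglobulin, hemoglobin and histone genes, the robust fit, a block for the replicate number, protein-coding genes alone, transcripts as deposited, a prior count of 2 and each library left out in turn. Leaving out libraries in DESeq2 was added after seeing the data.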

Additional observations from a re-analysis of the deposited data

How the results depend on the processing

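The log2 fold change of A2m stayed negative in every alternative run. It lay between -5.24 and -3.46 when single libraries were left out, and was -5.25 in DESeq2 without elderly 2. The number of genes called between ages (524) was 208 in the exact test, 1084 without a filter, 879 in the robust fit and 209 with an absolute log2 fold change over 2 required as well, and between 0 and 661 when single libraries were left out. In DESeq2 with single libraries left out it was between 238 and 422 (319 without elderly 1). Besides A2m, 1 of the other 8 genes was called; this was 2 in DESeq2 and in the robust fit, 3 without a filter, 0 in the exact test and between 0 and 1 when single libraries were left out. Of the pathway lists, 14 genes were called, compared with 4 in the exact test and 23 without a filter, between 0 and 14 when single libraries were left out, and between 8 and 15 when this was done in DESeq2. Why the counts without an elderly library fell to 0 was not tested. Per kb of merged exons rather than of countable exons, the mature levels were 292 for Lrp1, 0.983 for Lrp4, 0.712 for Vldlr and 38.3 for Lrpap1, and that of A2m did not move. Replicate numbers did not pair the libraries, since the deviations of same-numbered libraries had a correlation of 0.04 over 14398 genes. With the replicate number as a block, 1276 genes, 3 of the 8 genes besides A2m and 24 list genes were called. The depth limits Lrp2 and Lrp8, which had 60 counts or fewer in every library.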

Other observations

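The genes around A2m on chromosome 6 gave no further call. Within 500 kb of its ends, Pex26, Tuba8, Usp18, Slc6a13 and Slc6a12 were tested and none was called by edgeR, and Iqsec3, Mug1 and Mug2 had 2 counts or fewer. Usp18, an interferon-induced peptidase and the one with the most counts, was counted 413 and 667 times in mature and 307 and 716 times in elderly libraries, and these values overlap. Tacr1, the gene closest to A2m in its profile, is on chromosome 6 too but is not among the genes within 500 kb.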
